A study of Mus musculus with 6 samples.

Results

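Selectins and the vascular adhesion molecules that act beside them were followed in T1 and T2 cells, tumor cell populations of the mouse 4T1 model of triple negative breast cancer. The 9 genes were E-selectin (Sele), P-selectin (Selp), P-selectin glycoprotein ligand (Selplg), Vcam1, Icam1, Icam2, Madcam1, Alcam and Mcam, taken by symbol from the 24129 gene names in the deposited table. They were chosen with their values in T1 and T2 cells in view, so their difference between the populations is given as a description, with no test. Only 5 of the 9 genes (Sele, Selp, Vcam1, Alcam and Mcam) reached a mean of 10 normalized counts over the 6 samples and entered the comparison of 11514 genes, and 2 of them, Sele and Selp, reached it through T2 cells alone.

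Both populations came from 4T1GFP cells, the BALB/c mouse mammary carcinoma line 4T1 carrying green fluorescent protein (GFP). These cells had been injected into BALB/c mice, and the mammary tumor was resected, dissociated and sorted. GFP-negative cells positive for CD140a were sorted from it as fibroblasts and cultured. In that culture GFP-positive tumor cells outgrew the fibroblasts, and sorting it again on GFP gave T1 and T2 cells. T1 cells (named 4T1A in the labels, 3 replicates) had low GFP and grew attached, with an epithelial shape. T2 cells (4T1NA, 3 replicates) had high GFP in the study's sort, grew round and loosely attached, and were passaged without trypsin as a suspension. No treatment is named for either population, both were grown in DMEM/F-12 with 10% FBS and antibiotics, and the sources used here do not give the number of mice or of founding cells behind each.

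Adhesion molecules of the vessel wall bring circulating cells to a stop in steps. Selectins bind sialylated and fucosylated sugars on ligands such as the Selplg product and make cells roll, and immunoglobulin-type molecules such as VCAM-1, ICAM-1 and MAdCAM-1 then bind integrins and hold the cells firmly. Sele is best known from endothelium exposed to inflammatory cytokines, Selp from the storage granules of endothelium and platelets, and Alcam and Mcam also from carcinoma and melanoma cells.

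Each library held between 18133227 and 20839686 reads on genes, and 1 read was worth 0.928 to 1.06 normalized counts, so the lowest values below stand for single reads. Counts of replicates differed by more than sampling noise, since chi-square divided by its degrees of freedom was at least 7.96 for each pair. In bulk RNA, fewer cells that express a gene and less RNA per cell cannot be told apart. The labels do not say whether replicates were separate cultures, although the series' design text calls them independent, so p-values measure only the spread between these samples.

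Sele and Selp were abundant in T2 cells and at the level of single reads in T1 cells. In T1 cells Sele had 1, 2 and 0 reads (1.06, 1.86 and 0 normalized counts in replicates 1, 2 and 3), and in T2 cells it had 4698, 4461 and 5080 reads (4600, 4568 and 4714 normalized counts). Mean ± SD over the 3 replicates was 0.973 ± 0.933 for T1 and 4627 ± 76.8 for T2 cells. The ratio of pooled reads, scaled by depth, was 4699 with a 95% exact counting interval of 1608 to 22788, the width of which comes from the 3 reads in T1 cells. On the log2(normalized count + 1) scale the difference was 11.32 (SE 0.33), the highest in favour of T2 cells among the 11514 genes compared.

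Selp, whose product is held in granules and moved to the surface within minutes of activation in endothelium and platelets, had nearly the same profile. Its reads were 1, 1 and 3 in T1 cells and 4539, 4346 and 5667 in T2 cells. These correspond to 1.64 ± 1.12 and 4718 ± 468 normalized counts (SD, n = 3 each), with T2 replicate 3 (5258) above the other 2 (4444 and 4450). The ratio of pooled reads was 2881 with a counting interval of 1234 to 8875, and the log2 difference was 10.88 (SE 0.26), the second highest in favour of T2 cells. Selp overlaps 2 annotated transcripts on the opposite strand, and 1 of them, Gm16548, is in the table with no read in T1 cells and with 7.83, 8.19 and 11.1 normalized counts in T2 cells. Whether counting used strand is not given in the sources used here, and reads of a gene and of its antisense partner can then not be told apart.

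Per kb of exon, Sele exceeded Selp by 1.57, 1.56 and 1.36 times in T2 replicates 1, 2 and 3. By this measure the order of the pair was the same in each T2 library. It rests on union exon lengths of 2912 bases for Sele (1 annotated transcript) and 4413 bases for Selp (5 annotated transcripts pooled). Before this division the T2 means were 4627 for Sele and 4718 for Selp. Which Selp transcripts were read was not examined.

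**Figure D1:**
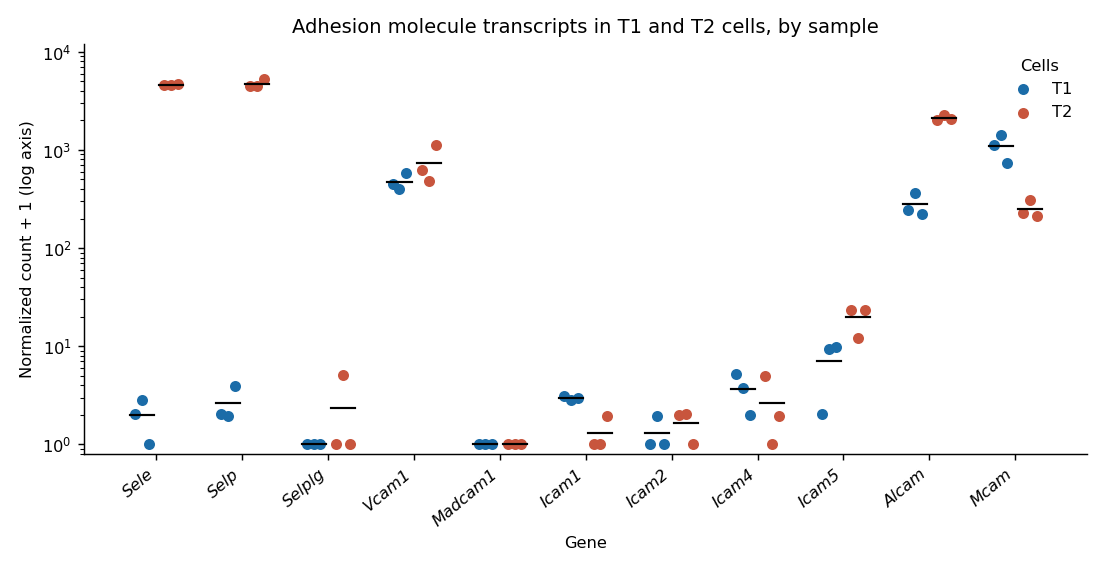
Normalized count plus 1 (log axis) of the 9 genes and of their relatives Icam4 and Icam5 in each sample, with T1 cells in blue, T2 cells in red and a black line at each group's mean. Sele and Selp lie between 4444 and 5258 in T2 cells and at or under 2.93 in T1 cells, Alcam is higher and Mcam lower in every T2 sample, and the Vcam1 groups overlap.

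Sele and Selp lie near each other on chromosome 1 of mm10, both on the plus strand (GENCODE coordinates). Sele spans chr1:164048234-164057677 and Selp chr1:164115264-164150026, 57.6 kb apart. On the outer sides of this pair, within 500 kb, 11 other protein-coding genes were examined, of which 9 entered the comparison, and 2 of those passed both filters of the study (adjusted p under 0.01 and absolute log2 fold change above 2). Ccdc181 was higher in T2 cells (144 ± 47.9 in T1 against 1120 ± 203 in T2 cells, log2 difference 2.98, limma adjusted p 1.2e-06), and Atp1b1, which encodes a subunit of the sodium pump, was lower (878 ± 86.4 against 203 ± 23.3, log2 difference -2.11, adjusted p 4.2e-07). The genes that border the pair on its outer sides did not share the difference. F5, which starts 1.81 kb beyond Selp and encodes coagulation factor V, was at 0.635 ± 0.551 and 0.651 ± 0.565 normalized counts, and Mettl18, 51.0 kb before Sele, was at 142 ± 13.3 and 150 ± 33.1 (log2 difference 0.05, adjusted p 0.82). At an adjusted p under 0.01 alone, 5 of the 9 neighbours compared were higher in T2 cells and 1 was higher in T1 cells, against 24.4% and 25.1% of all genes compared, and the median log2 difference of the 9 was 0.47 against 0.0055 for all genes.

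Selplg (chr5:113818536-113832644, minus strand), the scaffold that all selectins can bind once it carries the right sugars, was almost unread: T1 libraries had no read and T2 libraries had 0, 4 and 0. The T2 libraries that were rich in Sele and Selp thus held next to no transcript of this ligand. A count of 0 in a library allows up to 3 reads.

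The immunoglobulin-type molecules of the endothelium split into a group at the level of single reads and Vcam1. Icam1, a ligand of beta-2 integrins that cytokines induce on many cell types, had 2 reads in each T1 library and 0, 0 and 1 in T2 cells, and no fold is given because both groups are at or under 3 reads per library. Icam2 (chr11:106377656-106388075, minus strand), which endothelium and platelets carry without stimulation, had 0, 1 and 0 reads in T1 cells and 1, 1 and 0 in T2 cells. Madcam1 (chr10:79664559-79668537, plus strand), the address marker of gut vessels, had no read in any of the 6 libraries. Their relatives were also low, with Icam4 between 0 and 4.23 normalized counts in all samples and Icam5 at 1.06, 8.37 and 8.78 in T1 cells against 22.5, 11.3 and 22.3 in T2 cells. Icam5 missed the threshold (log2 difference 1.72, SE 0.61, limma adjusted p 0.031). Antisense transcripts that are not in the table overlap Icam1, Icam4 and Icam5, and the strand limit given for Selp holds for them.

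Vcam1 (chr3:116109949-116129688, minus strand), which binds integrins of the alpha-4 type and is induced by cytokines beside Sele, was read in all samples. It stood at 447, 400 and 580 normalized counts in T1 cells and at 618, 480 and 1123 in T2 cells. The groups overlapped, since T2 replicate 2 lay under T1 replicate 3. Means were 475 ± 93.3 and 740 ± 338 (SD, n = 3 each), and the log2 difference was 0.56 (SE 0.27). Much of it came from T2 replicate 3, without which it was 0.21. Antisense transcripts that are not in the table also overlap Vcam1 (Gm43109) and Mcam (Gm10687).

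Alcam and Mcam, adhesion molecules that tumor cells commonly carry, went opposite ways. Alcam (chr16:52248996-52454074, minus strand), which binds itself and the T cell receptor CD6, had 245, 364 and 224 normalized counts in T1 cells and 2015, 2284 and 2068 in T2 cells. Every T2 value exceeded every T1 value, with means of 278 ± 75.4 and 2123 ± 143, a ratio of 7.65 and a log2 difference of 2.96 (SE 0.16). Mcam (chr9:44134469-44142727, plus strand), also called CD146 and known from endothelium, smooth muscle and melanoma, had 1121, 1405 and 735 in T1 cells and 229, 305 and 209 in T2 cells. Every T1 value exceeded every T2 value, with means of 1087 ± 336 and 248 ± 50.8, a ratio of 4.39 in favour of T1 cells and a log2 difference of -2.10 (SE 0.22). The Mcam difference was close to the fold filter: the log2 difference was -1.89 without T1 replicate 2 and -1.99 without T2 replicate 3, and then 3 rather than 4 of the genes lay past both filters. Per kb of exon, the ratio of Alcam to Mcam was 0.103, 0.122 and 0.143 in T1 cells and 4.14, 3.52 and 4.66 in T2 cells.

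Counted together, 4 of the 5 genes compared lay past both filters, 3 higher in T2 cells and 1 higher in T1 cells, where 8.37% of all genes compared did (4.2% higher in T2 and 4.17% higher in T1 cells). The same 4 had an adjusted p under 0.01, as had 49.5% of all genes compared. The groups of these 4 genes did not overlap, which held for 68.1% of all genes compared (33.9% higher in T2 and 34.2% higher in T1 cells). The median log2 difference of the 5 was 2.96. Because the genes were picked on this contrast, nothing is read from these counts.

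The order of the levels differed between the populations. Per kb of exon, T1 cells had Mcam first (324 ± 100.4 normalized counts per kb, percentile 71.2 of genes compared), then Vcam1 (53.6 ± 10.5) and Alcam (39.0 ± 10.6), whose samples overlapped. Selp (0.371), Icam1 (0.453) and Sele (0.334) stood far under these, at a few reads each and in no order that such counts can tell. In T2 cells Sele came first (1589 ± 26.4, the 95.7th percentile), then Selp (1069 ± 106, the 92.5th percentile), and their samples did not overlap. The order of this pair rests on the exon lengths used, as said above. Alcam followed (298 ± 20.01), and then Vcam1 (83.5 ± 38.1) and Mcam (73.9 ± 15.2), whose samples overlapped.

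**Figure D2:**
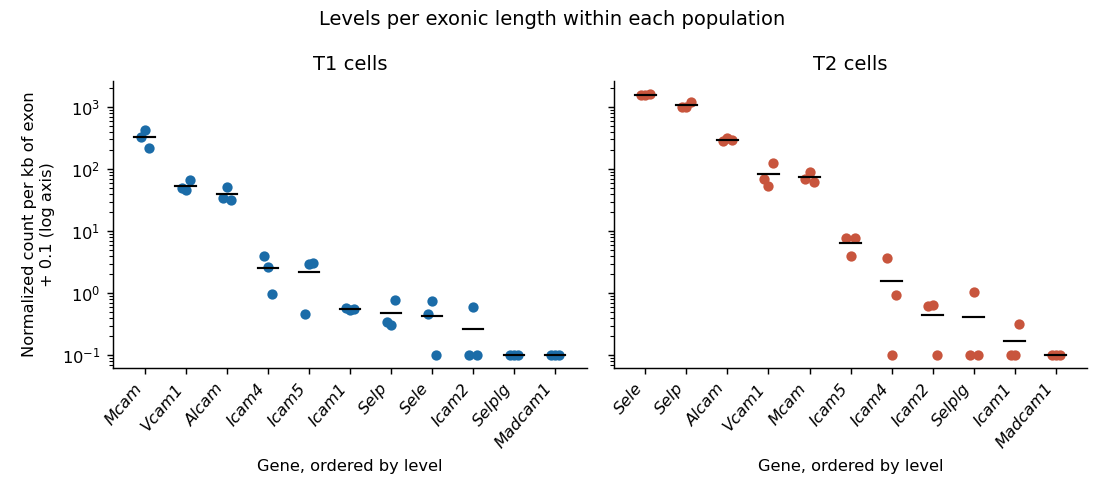
Normalized count per kb of exon plus 0.1 (log axis) of the same 11 genes in T1 cells (left) and T2 cells (right), ordered by the mean (black line), with a point for each sample. Mcam leads in T1 cells at 324 per kb, while Sele (1589) and Selp (1069) lead in T2 cells, above Alcam (298).

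Promoter sequences of 6 of the 9 genes were found in the RefSeq table of build GRCm38.p6, which is mm10, and 3 are shown. Sele and Selp are shown because they moved together, and Icam1 because cytokines induce it beside Sele, yet it was at single reads here. Each sequence is the 250 bases before the annotated start, read 5′ to 3′ on the plus strand, at chr1:164047984-164048233 for Sele, chr1:164115014-164115263 for Selp and chr9:21015690-21015939 for Icam1. Capitals mark matches to the motifs named after the sequences.
Sele: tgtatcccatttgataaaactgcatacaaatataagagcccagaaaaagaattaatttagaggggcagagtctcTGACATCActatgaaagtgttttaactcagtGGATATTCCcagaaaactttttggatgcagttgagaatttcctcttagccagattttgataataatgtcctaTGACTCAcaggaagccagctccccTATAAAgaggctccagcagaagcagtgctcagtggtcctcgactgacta
Selp: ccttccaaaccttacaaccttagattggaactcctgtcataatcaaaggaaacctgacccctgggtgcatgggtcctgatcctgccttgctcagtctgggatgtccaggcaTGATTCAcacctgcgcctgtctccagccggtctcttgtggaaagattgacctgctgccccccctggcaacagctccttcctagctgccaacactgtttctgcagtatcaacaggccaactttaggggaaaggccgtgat
Icam1: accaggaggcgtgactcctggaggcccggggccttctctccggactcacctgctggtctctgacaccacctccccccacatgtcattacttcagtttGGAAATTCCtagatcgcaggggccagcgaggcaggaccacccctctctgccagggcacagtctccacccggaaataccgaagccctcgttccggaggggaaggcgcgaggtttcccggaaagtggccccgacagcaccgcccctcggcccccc

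Motifs were chosen after the sequences had been seen, and both strands were searched. Positions count back from the base before the start, which is -1. The Sele promoter held a TATA box (TATAAA, -49 to -44, a motif in 12.4% of the 32851 promoters of this length), an AP-1 site (TGANTCA, -73 to -67, in 6.75%), a CRE or ATF site (TGACNTCA, -176 to -169, in 7.49%) and a kappaB core (GGANNTTCC, -145 to -137, in 3.59%). The Selp promoter held only an AP-1 match (-139 to -133), and the Icam1 promoter only a kappaB core (-153 to -145, read on both strands at the same bases). No match to the letters used for a GATA motif (AGATAA, in 9.99%), an ETS motif (CGGAAG, in 13.6%) or a longer kappaB motif (in 4.11%, which can overlap the core) was found in these 3 windows. Other spellings of the GATA and ETS motifs were not searched. The Sele sequence, for example, holds TGATAA and AGGAAG, which differ from the searched letters in the first base. A lack of GATA or ETS sites is therefore not read from this search. Sele had 1 CpG and 40.4% GC and Selp 3 CpG and 53.6% GC, while Icam1 had 15 CpG and 65.2% GC, Alcam 22 CpG and Mcam 25 CpG (median of all promoters 6 CpG and 52.4% GC). Mcam held a CRE or ATF match (-29 to -22), Madcam1 kappaB matches and Alcam none of the 7 motifs. A match describes letters and not binding.

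Icam1 lies on chromosome 9 (chr9:21015985-21028817, plus strand) with Icam4 0.555 kb and Icam5 a further 1.48 kb downstream. Of 30 other protein-coding genes within 500 kb, 24 entered the comparison, and 1 passed both filters, A230050P20Rik, lower in T2 cells (78.8 ± 2.90 against 17.3 ± 5.39, log2 difference -2.17, limma adjusted p 6.6e-05). Without T2 replicate 1 its log2 difference was -1.93 and none of the 24 passed. The neighbour before Icam1, Mrpl4, was read at 984 ± 74.7 and 942 ± 79.7 normalized counts (log2 difference -0.06, adjusted p 0.60). The low level of Icam1 was therefore not shared by this neighbour.

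**Figure D3:**
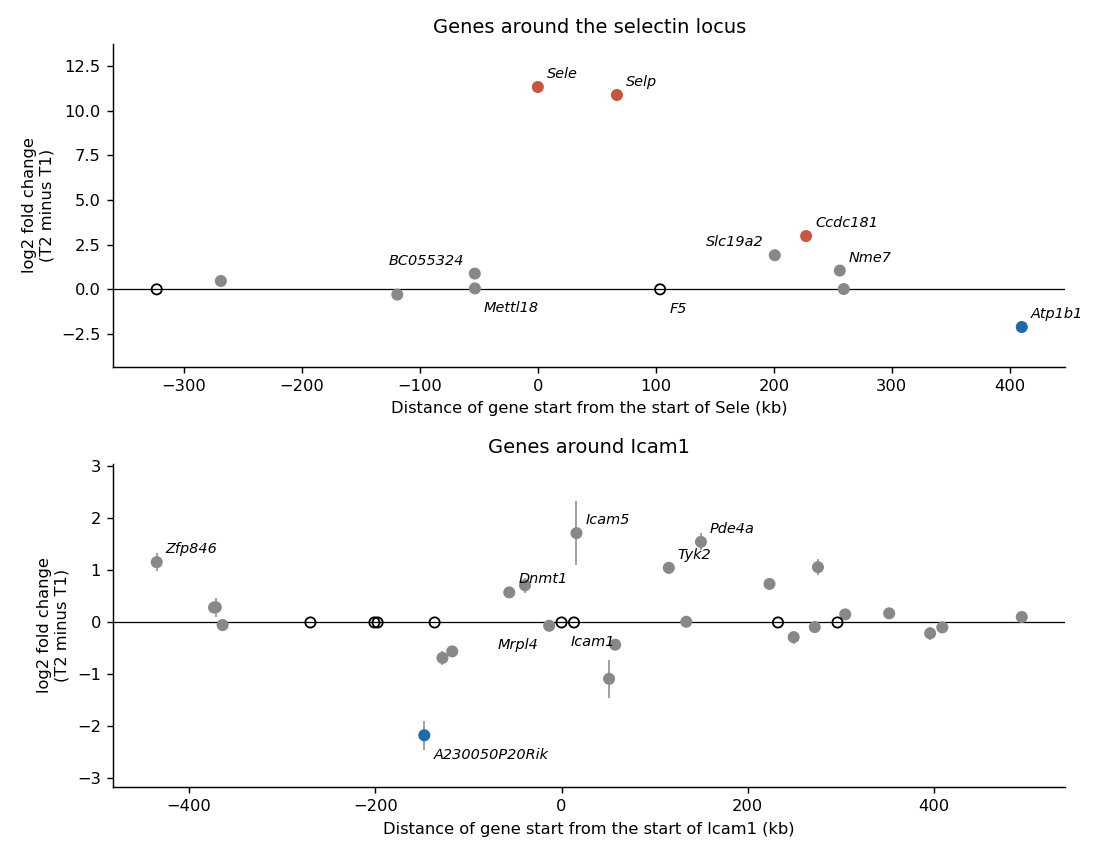
Log2 fold change (T2 minus T1, with SE) of protein-coding genes against the distance of their start from the start of Sele (top) or Icam1 (bottom), in kb, with filled red points past both filters and higher in T2 cells, blue past both filters and higher in T1 cells, gray for other genes compared, and open circles on the zero line for genes under the minimum mean, which have no fold. Sele and Selp stand at 11.32 and 10.88, while their outer neighbours Mettl18 (0.05) and F5 (not compared) do not.

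Genes that make the ligands of selectins, bind the other molecules, hold them in the membrane or induce them were counted from 9 lists. Together they held 119 genes, of which 82 were compared and 18 passed both filters, 11 higher in T2 cells and 7 higher in T1 cells, where 4.2% and 4.17% of all genes compared did. At an adjusted p under 0.01 alone, the shares of all genes compared were 24.4% and 25.1%, and the list counts below stand against these. The calls are those of the limma fit over all 11514 genes, the values are normalized counts in replicates 1, 2 and 3, and the lists are described by counts and medians beside the median of 0.0055 of all genes.

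Of 9 protein scaffolds that can carry selectin ligands, 6 were compared, 5 were higher in T2 cells at an adjusted p under 0.01 and 2 of those passed both filters, with a median log2 difference of 0.92. Spn, the leukocyte sialomucin CD43, stood at 401, 233 and 381 in T1 cells and 1673, 1566 and 1780 in T2 cells (log2 difference 2.34, adjusted p 2.0e-06). Lgals3bp, a secreted glycoprotein that binds galectins, stood at 89.9, 46.5 and 164 against 552, 484 and 609 (2.61, adjusted p 1.0e-04). Cd44, Cd24a and Podxl rose by less (1.13, 0.71 and 0.56), and Glg1, also known as E-selectin ligand 1, was at 0.02 (adjusted p 0.88). Glycam1 and Emcn had no reads.

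Among 15 enzymes that build the sugars, 11 were compared, 6 were higher in T2 cells, 3 were higher in T1 cells and the median was 0.45. St3gal6, a sialyltransferase of selectin ligands, stood at 31.7, 27.9 and 40.02 in T1 cells and 557, 581 and 490 in T2 cells (4.00, adjusted p 4.7e-08), and St3gal4, which acts on the same kind of chain, at 1134, 983 and 915 against 7354, 6400 and 8122 (2.85, adjusted p 1.5e-08). Gcnt1, which starts the branch of O-glycans that carries the ligand, stood at 27.5, 38.1 and 27.3 in T1 cells and had no read in T2 cells, at least 10.6-fold lower there (adjusted p 4.7e-06). The fucosyltransferases that complete the ligand were not read to speak of, with none of Fut4 and Fut9 in any library and 3 reads of Fut7 in a single T2 library.

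Integrins and other counter-receptors were mostly at single reads. Of 10, 3 were compared, and Itgb7, whose product pairs with the alpha-4 chain to bind MAdCAM-1 and VCAM-1, passed both filters at 142, 101 and 106 in T1 cells against 816, 699 and 872 in T2 cells (2.77, adjusted p 2.4e-07). Itga4, the gene of that alpha-4 chain, had no read in any library, and Cd6, the receptor of ALCAM, had 1 in all. Itgb1 fell by 0.77 on the log2 scale from a high level (adjusted p 1.7e-05). Itgb2, at 68.8, 64.2 and 167 in T1 cells and 13.7, 22.5 and 77.0 in T2 cells, missed the threshold (-1.61, adjusted p 0.029), but without T2 replicate 3 the list counted 2 genes past both filters in place of 1.

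Of 15 other adhesion molecules of vessels and of the immunoglobulin family, 9 were compared, 3 were higher in T2 cells and 4 in T1 cells at an adjusted p under 0.01, and the median was -0.07. Those past both filters were Bcam, a laminin receptor (9.52, 4.65 and 22.5 against 101, 81.9 and 131, log2 difference 3.21, adjusted p 1.4e-04), and Cadm1, which joins epithelial cells (2.12, 0.93 and 2.93 against 27.4, 21.5 and 26.9, log2 difference 3.19, adjusted p 8.3e-05, ratio of pooled reads 12.9 with a counting interval of 5.65 to 36.1). Cd47 was also higher in T2 cells but under the fold filter, at means of 1001 in T1 and 3478 in T2 cells (log2 difference 1.80, limma adjusted p 9.4e-08). L1cam, Pvr, Pvrl2 and F11r were higher in T1 cells, at log2 differences of -1.93, -1.39, -0.94 and -0.56. Pecam1, the junction molecule that defines endothelium, did not exceed 4.64 normalized counts in any sample.

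All 9 linkers and sheddases were compared and none passed both filters. At an adjusted p under 0.01, 4 were higher in T2 cells and 2 in T1 cells. Msn, which ties membrane proteins such as ICAMs to actin, fell by 1.08 on the log2 scale (adjusted p 1.5e-06), and Ezr, of the same family, rose by 0.62 (adjusted p 4.9e-05). The sheddases Adam10 and Adam17 were at 0.86 (adjusted p 8.3e-06) and 0.01 (adjusted p 0.91).

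Cytokine receptors and NF-kB factors, which control the induction of Sele, Vcam1 and Icam1 in endothelium, were mostly read in both populations. The list also holds inhibitors of NF-kB (Nfkbia, Nfkbib, Nfkbie and Tnfaip3), so its counts and median mix genes of opposite action. Cd40, at 8.46, 8.37 and 17.6 in T1 cells and 1.96, 3.07 and 1.86 in T2 cells, was too low to be compared. Of 20, 19 were compared, 6 were higher in T2 cells, 9 were higher in T1 cells, none passed both filters and the median was -0.31. Rela, the main activating subunit, was at 2361, 2569 and 2141 in T1 cells and 2285, 2340 and 2106 in T2 cells (-0.07, adjusted p 0.52). Nfkb1 and Il1rap were higher in T2 cells (0.66 and 1.64), and Nfkb2, Relb and Tnfaip3 were lower (-0.64, -1.16 and -1.04, adjusted p 1.4e-04, 6.3e-06 and 2.7e-06). Nfkbia overlapped between the populations, at 1074, 1496 and 830 in T1 cells and 754, 1459 and 637 in T2 cells (-0.31, adjusted p 0.37).

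Genes that cytokines induce in endothelium together with Sele were mostly lower in T2 cells. Of 15, 11 were compared, 8 were lower and 1 was higher at an adjusted p under 0.01, 5 and 1 of these passed both filters, and the median was -1.69. Ccl5 stood at 115, 197 and 206 in T1 cells against 2.94, 1.02 and 7.42 in T2 cells (-5.37, adjusted p 5.6e-06), Cxcl10 at 95.2, 102 and 33.2 against 2.94, 0 and 2.78 (-4.83, adjusted p 6.5e-05), and Ptgs2, the inducible cyclooxygenase, fell by 3.03 on the log2 scale (adjusted p 4.3e-06). F3 and Lif also passed, at -2.32 and -2.05. The exception was Cx3cl1, the membrane-bound chemokine fractalkine, at 434, 381 and 321 in T1 cells against 2916, 2948 and 3080 in T2 cells (2.98, adjusted p 1.5e-08).

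Genes of the granules that store P-selectin and factors of endothelial identity differed in both directions. Of 11 granule genes 7 were compared, 2 were higher in T2 cells, 3 in T1 cells and the median was 0.32. Vwf, the main cargo of these granules in endothelium, had 1 read in a single T1 library and none in T2 cells, Edn1 stood at 276, 256 and 231 against 0, 4.10 and 0 (-7.21, adjusted p 2.2e-06), and Angpt2 at 9.52, 14.9 and 21.5 against 77.4, 91.1 and 112 (2.59, adjusted p 4.7e-05). Of 15 endothelial transcription factors 7 were compared, 3 were higher in T2 cells, 1 in T1 cells and the median was 0.98. Erg, Fli1, Sox17 and Sox18, which define endothelium, had no reads, while Klf2 (105, 282 and 222 against 879, 1495 and 1147, log2 difference 2.61, adjusted p 5.0e-05) and Gata2 (12.7, 7.44 and 5.86 against 43.1, 32.8 and 52.0, log2 difference 2.21, adjusted p 3.2e-04) passed both filters. Without T1 replicate 3, Gata2 stood at 1.996 and only Klf2 passed.

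**Figure D4:**
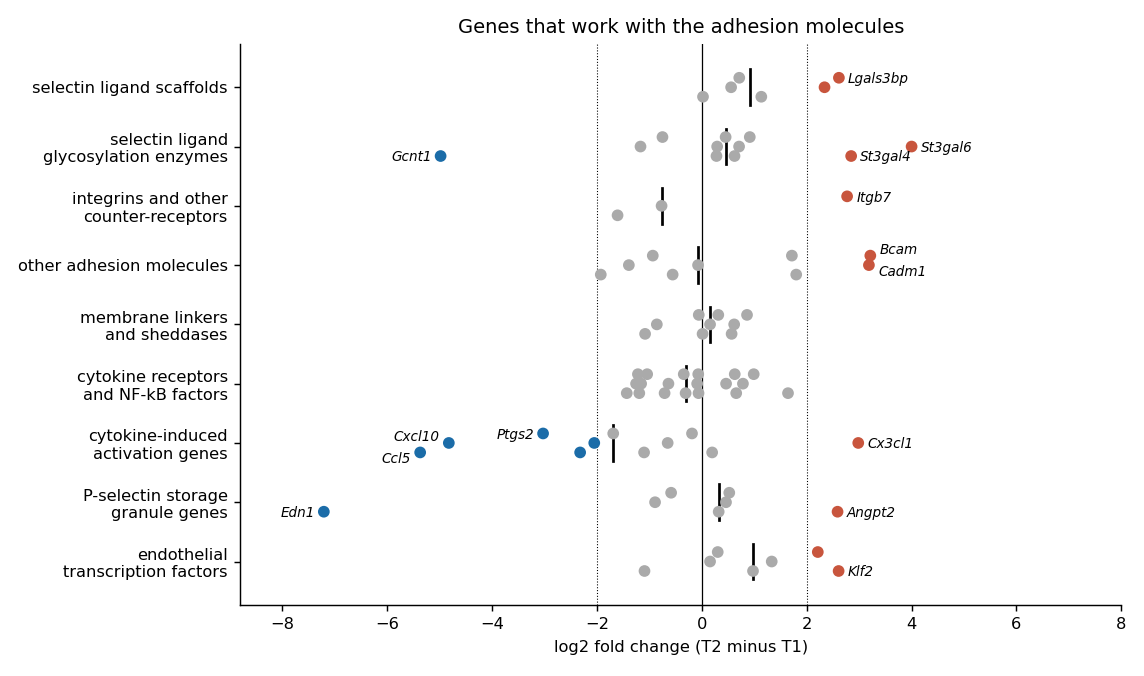
Log2 fold change (T2 minus T1) of the compared genes of the 9 lists, a point for each gene, with red and blue points past both filters (higher in T2 and in T1 cells), gray points for the others, black bars at the medians and dotted lines at a log2 fold change of 2 in either direction. The cytokine-induced list has the lowest median (-1.69) and the selectin ligand scaffolds and endothelial transcription factors the highest (0.92 and 0.98).

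Because Sele and Selp are known from vessels and platelets, markers of other cell types were read beside them. Of 14 endothelial markers 12 stayed under 20 normalized counts in every sample. The defining markers were at or near 0, with Kdr at no read in any library, Cdh5 at or under 1.06, Vwf at or under 1.06 and Pecam1 at or under 4.64, where Sele and Selp stood at 4444 or more in T2 cells. The summed level of the list was 537 to 606 in T1 cells and 3689 to 4147 in T2 cells, and this came from Flt1, a receptor of vascular endothelial growth factor (317, 353 and 270 against 3643, 3456 and 3923), beside Egfl7 (214, 240 and 262 against 201, 215 and 216). Without these 2 genes, left out after their values had been seen, the sums were 4.88 to 19.05 in T1 cells and 0.979 to 18.4 in T2 cells.

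The platelet list summed to 47.6 to 61.5 in T1 cells and 42.7 to 61.7 in T2 cells, with 9 of 11 markers under 20 in every sample, 4 of them with no read and Pf4 at or under 3.07. Its members differed in direction: Ppbp, the highest in T1 cells, was at 32.8 to 37.2 there and 3.07 to 6.50 in T2 cells, while Itga2b, the highest in T2 cells, was at 3.72 to 18.5 in T1 and 13.3 to 26.4 in T2 cells. Gp1ba was at 0.976 to 6.51 and 8.35 to 11.75, and Gp1bb at 0.976 to 6.51 and 4.64 to 15.7. The leukocyte list summed to 73.0 to 176 in T1 cells and 29.4 to 99.3 in T2 cells, with Itgb2 giving 64.2 to 167 of it in T1 cells and 13.7 to 77.0 in T2 cells, and Ptprc, the gene of CD45, had no read in T1 cells and at most 6.14 normalized counts in T2 cells. Itgb2 was highest in replicate 3 of both populations, as Vcam1 was. Other leukocyte markers, at few reads, did not share this order throughout. Csf1r was highest in T1 replicate 2 (9.30) and Ptprc lowest in T2 replicate 3 (2.78), whereas Cd53 (7.42) and Coro1a (12.1) were highest in T2 replicate 3. The part of leukocyte transcripts in the Vcam1 values was not tested. The pericyte and smooth muscle list, of cells that carry Mcam, summed to 43.4 to 60.5 and 30.7 to 43.1, with Pdgfrb at no read.

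The fibroblast list summed to 353 to 403 in T1 cells and 997 to 1297 in T2 cells. In T2 cells nearly all of it was Pdgfra (996, 1004 and 1295), while Col3a1, Lum and Thy1 had no reads in any library. The Pdgfra product, CD140a, had marked the fibroblast sort in whose culture both populations were found. The list's other members past both filters were higher in T1 cells, Postn at 126, 146 and 162 against no read in T2 cells (limma adjusted p 5.9e-08) and Col1a1 at 14.8, 27.9 and 24.4 against 0.979, 0 and 0 (adjusted p 4.9e-05). Epithelial markers summed to 97134 to 116910 in T1 cells and 37622 to 43999 in T2 cells. Krt18 and Krt8 remained high in T2 cells (19625 to 22756 and 17357 to 20326), and Epcam, which the study stained for in its sort, Cdh1, Krt7, Krt19 and Cldn4 were lower by 4.98 to 10.01 on the log2 scale. The T2 libraries with abundant Sele and Selp held keratin transcripts in plenty and few reads of most markers of endothelium, platelets and leukocytes.

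**Figure D5:**
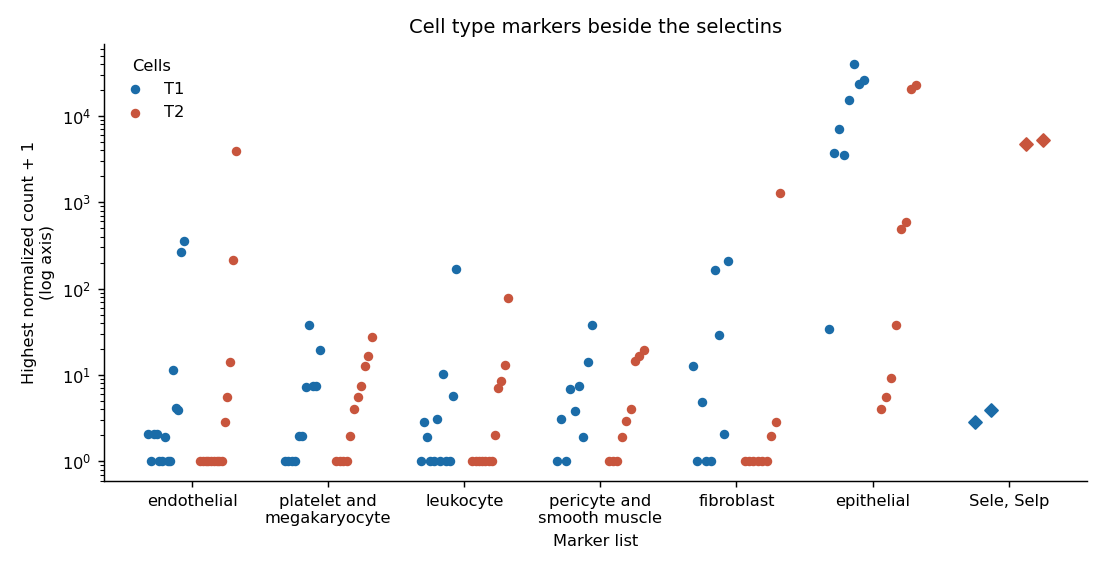
Highest normalized count plus 1 (log axis) over the 3 samples of T1 cells (blue) and of T2 cells (red) for each marker of 6 cell type lists, beside Sele and Selp (diamonds). Of the endothelial markers only Flt1 and Egfl7 exceed 20, whereas Sele and Selp reach 4714 and 5258 in T2 cells.

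Genes with the most similar pattern were found by the root mean square difference of log2(normalized count + 1) over the 6 samples, a measure in which sharing both the low and the high level counts. Nearest to Sele were Scara5 (0.79), a scavenger receptor that binds ferritin, at 5.29, 3.72 and 0 in T1 cells and 3601, 2957 and 3718 in T2 cells, then Ube2ql1 (1.35) and Bpifb4 (1.47). Nearest to Selp were Ube2ql1 (0.98), at 0, 0 and 2.93 against 2278, 1914 and 2337, then Sema6d (1.08) and Scara5 (1.21). Nearest to Alcam were Adam19 (0.34), Pdzrn3 (0.37) and Apcdd1 (0.38), with Adam19, a metalloprotease, at 354, 295 and 280 against 2229, 3032 and 1832. None of these genes lies on chromosome 1 beside the selectins.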

How the data were processed

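RNA sequencing values of 3 replicates of T1 cells and 3 of T2 cells were used. The authors made poly(A)-selected TruSeq libraries, trimmed with Trimmomatic, used TopHat2 to align to mm10, HTSeq to count and DESeq2 to normalize; versions, annotation and strand setting of these steps are not given in the sources used here. The deposited signal is thus the read count of a gene divided by 1 size factor per sample, and for 100% of values the whole read count could be recovered (tolerance 0.1 reads). Libraries held 18133227 to 20839686 reads on genes. No column was left out (0 unused).

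The 9 genes and all lists were chosen with earlier results of these data known. Genes averaging 10 or more normalized counts were compared on log2(normalized count + 1) with limma 3.58.1 (variance trend) in R 4.3.3, with Benjamini-Hochberg adjustment over 11514 genes, no covariate, and the filters of the study (adjusted p under 0.01, absolute log2 fold change above 2). Fold changes of low genes are understated on this scale. Some list and marker genes, among them Cadm1, Gata2 and Col1a1, reached the mean of 10 only through the population in which they were high. Their calls carry the same limit as those of Sele and Selp. Named genes were the 9 members, Icam4 and Icam5, up to 4 genes with the largest change past both filters in each list (or else the one with the highest mean), the direct and the called neighbours within 500 kb, the 3 nearest patterns and the highest markers; other names in the text were chosen after their values were seen. Ratios of pooled reads have a 95% exact interval, and a count of 0 was set to 3 reads per library for bounds; both cover counting error only. Levels between genes were compared per kb of union exon length (GENCODE vM21, in which 23103 names were found). Names of 27 genes had become dates; these rows are not named. Another gene of the lists is not reported here.

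Alternatives were pseudocounts 0.5 and 5, filters of none and of a mean of 50, limma without trend, quantile normalization, a term for the replicate number, leaving out each replicate, and tests on whole reads with edgeR 4.0.16 and DESeq2 1.42.0. The edgeR quasi-likelihood test called 974 genes past both filters, 956 of them among the 964 called by limma, and DESeq2 called 974 (956 shared). Each tool was tested on simulated data made from these samples, in which 200 of 11459 genes had changed, and found 200 with 0 others called. The changed genes had a mean of at least 50 and moved by more than the fold filter, with the same noise for all genes. Such a setting makes a full score easy to reach, and it does not cover genes near the floor or near the filters. Figures were drawn with matplotlib 3.10.9.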

Additional observations from a re-analysis of the deposited data

How the results depend on the processing

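The number of the 9 genes past both filters was 4 under each alternative except leaving out a replicate (3 to 4). Differences of Sele and Selp kept their direction throughout, and their size followed the treatment of low counts, from 9.61 and 9.48 (log2, pseudocount 5) to 12.20 and 11.49 (DESeq2). Genes past both filters numbered 659 (mean of at least 50) to 1272 (no filter) against 964, and 925 to 975 with a replicate left out.

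Endothelial transcription factors past both filters numbered 1 with pseudocount 5, 4 with no filter, 1 with a mean of at least 50 and 1 to 2 with a replicate left out, against 2. Other adhesion molecules numbered 1 with a mean of at least 50 (fewer genes tested), 3 with no filter and 2 to 3 with a replicate left out, against 2, integrins and counter-receptors 1 to 2 with a replicate left out against 1, and neighbours of Icam1 0 with pseudocount 5, 0 with a mean of at least 50 and 0 to 1 with a replicate left out, against 1. Per kb of exon, summed marker levels had log2 ratios of T2 over T1 of 1.84 (endothelial, 2.78 without length), -0.95 (platelet, -0.14), -0.77 (pericyte, -0.42) and -0.73 (epithelial, -1.33). Without Flt1 and Egfl7, an alternative chosen after seeing the data, the endothelial ratio was -0.78, taken between sums of few reads whose groups overlap, and no direction is read from it. The cause of these shifts was not tested. Of 29 single genes with a test, 27 kept their call under all alternatives in which they were tested. A230050P20Rik, Cadm1, Cxcl10, Gata2 and Gcnt1 were not tested with a mean of at least 50. A230050P20Rik fell to -1.94 (pseudocount 5) and -1.93 (without T2 replicate 1) and Gata2 to 1.81 and 1.996 (without T1 replicate 3).

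Whether the replicate numbers pair the samples was not settled. Deviations of same-numbered T1 and T2 samples correlated weakly, at 0.057, 0.172 and 0.104, against -0.152 to 0.072 for samples of unlike number. Each T1 replicate correlated best with the T2 replicate of its own number, but T2 replicate 1 correlated best with T1 replicate 3 (0.072). With the replicate block 967 genes passed both filters, 964 of them shared, and 4 of the 9 genes. No exact permutation p under 0.1 is possible with 3 replicates in each population, and depth limits Icam1, Icam2, Madcam1 and Selplg, where differences under about 3 reads per library are not detectable.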
